A study of Mus musculus with 45 samples.

Results

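Of the 35372 genes in the count tables, 8 encode the enzymes and partner proteins that write, copy or remove methyl groups on cytosine in mouse DNA. They were taken by gene symbol (Dnmt1, Dnmt3a, Dnmt3b, Dnmt3l, Uhrf1, Tet1, Tet2 and Tet3) and followed in all 45 RNA-seq libraries of male wild-type E14tg2a embryonic stem cells (the line XY1, of 129/Ola origin). The cells had been kept either in 2iL, a serum-free N2B27 medium with the GSK3 inhibitor CHIR99021, the MEK inhibitor PD0325901 and leukaemia inhibitory factor (LIF), or in SL, which is serum with LIF. They were then differentiated in 3 courses: in suspension in serum without LIF to form embryoid bodies (EB), as an adherent layer in N2B27 with Fgf2 and Activin A (EpiSC), or as an adherent layer in N2B27 alone (Neural). The study describes the line as derived in SL, and its XY1 cells had at most 3 passages in 2iL before differentiation. Libraries came from days 0, 1, 1.5, 2, 2.5, 3, 5 and 7. There was 1 library for each medium, course and day, 23 from 2iL and 22 from SL. Undifferentiated SL cells gave a single library that served all 3 courses, and day 5 of the EpiSC course from 2iL was not analysed here. All libraries come from 1 line, so they say nothing about other lines or about females.

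In mammals DNMT3A and DNMT3B add methyl groups to unmethylated CpG sites, with DNMT3L as a partner that has no catalytic activity of its own, while UHRF1 binds hemimethylated DNA behind the replication fork and recruits DNMT1 to copy the pattern. TET1, TET2 and TET3 oxidize 5-methylcytosine, which leads to its loss through replication or base excision repair. Naive stem cells in 2iL are known for low DNA methylation, and the epiblast gains methylation as it leaves the naive state. DNA methylation, protein and enzyme activity were not measured in these data, which hold RNA only.

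Counts summed to between 13093226 and 39804240 reads per library (median 18222720), and the lowest count of any of the 8 genes in any library was 59 reads, so all were detected throughout. Levels are given as CPM, the reads of a gene scaled by the total of its library, and where 3 values are given they are the EB, EpiSC and Neural cultures in that order. Cell type markers were read first. The 7 naive markers summed to 4111 to 4372 CPM in the 2iL libraries of day 0 and to 133 to 204 CPM at day 2, while the 5 formative markers went from 17.2 to 20.8 to 326 to 569 CPM. All 7 naive markers passed downward and all 5 formative markers upward between those days, with medians of -4.38 and 5.60 on the log2 scale. Of the markers of other cell types, 5 of 6 for endoderm, 2 of 5 for neural cells and 1 of 5 for blood and endothelium passed upward. None of 5 for primitive streak did, and none of the 4 markers of 2-cell-like cells passed in either direction. Downward calls were made for the neural marker Tubb3 (-2.25 on the log2 scale) and the primitive streak marker Gsc (-5.39). In bulk RNA, fewer cells that express a gene and less RNA per cell cannot be told apart. With 1 library per medium, course and day, the courses stood in as replicates of a day, and p-values measure the spread between these libraries only. The 3 day 0 libraries from 2iL hold undifferentiated cells and only carry the name of a course. The labels do not state whether they are separate cultures, nor whether serial days of a course are. The p-values between days may therefore be too small.

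On the GRCm38 annotation (GENCODE vM21) the genes lie at chr9:20907209-20959888 (Dnmt1, minus strand), chr12:3806007-3914443 (Dnmt3a, plus), chr2:153649450-153687730 (Dnmt3b, plus), chr10:78041947-78063622 (Dnmt3l, plus), chr17:56303321-56323486 (Uhrf1, plus), chr10:62804570-62908996 (Tet1, minus), chr3:133463679-133545139 (Tet2, minus) and chr6:83362373-83459084 (Tet3, minus). Reads on their exons were counted.

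The start sites of the 3 de novo genes and of Tet2 differ widely in CpG content, which is the sequence these enzymes act on, and are therefore shown before the expression values. Each window spans 300 bases around a RefSeq transcript start on GRCm38.p6, most of them upstream, are written along the gene's strand, and have every CpG in capitals.
Dnmt3a promoter, chr12:3806730-3807029, plus strand: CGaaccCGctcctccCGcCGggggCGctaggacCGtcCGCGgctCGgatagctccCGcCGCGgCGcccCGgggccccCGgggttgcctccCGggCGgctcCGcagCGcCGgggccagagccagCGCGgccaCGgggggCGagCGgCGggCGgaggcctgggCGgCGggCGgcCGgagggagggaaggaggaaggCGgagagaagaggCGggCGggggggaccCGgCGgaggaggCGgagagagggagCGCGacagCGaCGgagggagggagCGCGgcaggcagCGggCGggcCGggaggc
Dnmt3b promoter, chr2:153649199-153649498, plus strand: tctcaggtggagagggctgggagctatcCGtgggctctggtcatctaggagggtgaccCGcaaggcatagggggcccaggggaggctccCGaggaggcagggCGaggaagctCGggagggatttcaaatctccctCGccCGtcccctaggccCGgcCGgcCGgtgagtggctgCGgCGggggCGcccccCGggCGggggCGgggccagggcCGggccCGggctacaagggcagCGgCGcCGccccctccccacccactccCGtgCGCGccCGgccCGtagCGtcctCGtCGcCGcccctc
Dnmt3l promoter, chr10:78042037-78042336, plus strand: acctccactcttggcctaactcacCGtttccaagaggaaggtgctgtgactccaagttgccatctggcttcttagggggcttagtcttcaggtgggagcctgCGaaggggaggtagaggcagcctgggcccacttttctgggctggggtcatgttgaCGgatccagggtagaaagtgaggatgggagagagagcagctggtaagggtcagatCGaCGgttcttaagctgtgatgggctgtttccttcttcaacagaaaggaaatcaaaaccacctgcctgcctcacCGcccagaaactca
Tet2 promoter, chr3:133544341-133544640, minus strand: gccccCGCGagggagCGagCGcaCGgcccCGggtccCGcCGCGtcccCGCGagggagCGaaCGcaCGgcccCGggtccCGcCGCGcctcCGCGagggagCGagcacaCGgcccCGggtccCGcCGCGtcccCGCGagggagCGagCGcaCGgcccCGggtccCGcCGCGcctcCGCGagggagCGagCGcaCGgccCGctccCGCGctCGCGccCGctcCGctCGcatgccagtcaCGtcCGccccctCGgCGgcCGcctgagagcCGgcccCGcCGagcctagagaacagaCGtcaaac
These windows hold 46, 30, 6 and 57 CpGs respectively, against a median of 7 (quartiles 3 and 20) over the 32851 RefSeq promoter windows of the same length. The Tet2 window stood at the 99.8 percentile of all windows and the Dnmt3l window at the 43.6 percentile. The other annotated Dnmt3l starts were poor in CpG too, with 4 and 3, whereas a further Dnmt3a start inside the gene (chr12:3891494-3891793) had 18. The remaining windows held 17 CpGs at Tet1 and 22 at Tet3, 12 and 33 at the 2 Uhrf1 starts, and 2, 12 and 33 at the 3 Dnmt1 starts. The GC box GGGCGG, searched on both strands, was found 6 times in the Dnmt3a window shown, 4 times at Dnmt3b and once each at Dnmt3l and Tet2, and in 35.7% of all windows. The letters TATAAA, found in 13.6% of all windows, were in none of the members' windows. Counts were made per gene, so neither the start used nor the isoform can be read from them.

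Across the 45 libraries Dnmt3l had the widest range in fold, from 3.81 to 799.9 CPM, and Dnmt1 the narrowest, from 308 to 565 CPM. The plot of levels by day separates 4 shapes: a slow decline (Dnmt1 and Uhrf1 from 2iL), a rise followed by a decline (Dnmt3a and Dnmt3b from both media, Dnmt3l from 2iL), a decline over the first days (Tet2 at once, Tet1 from 2iL after day 1) and a late rise (Tet3).

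**Figure D1:**
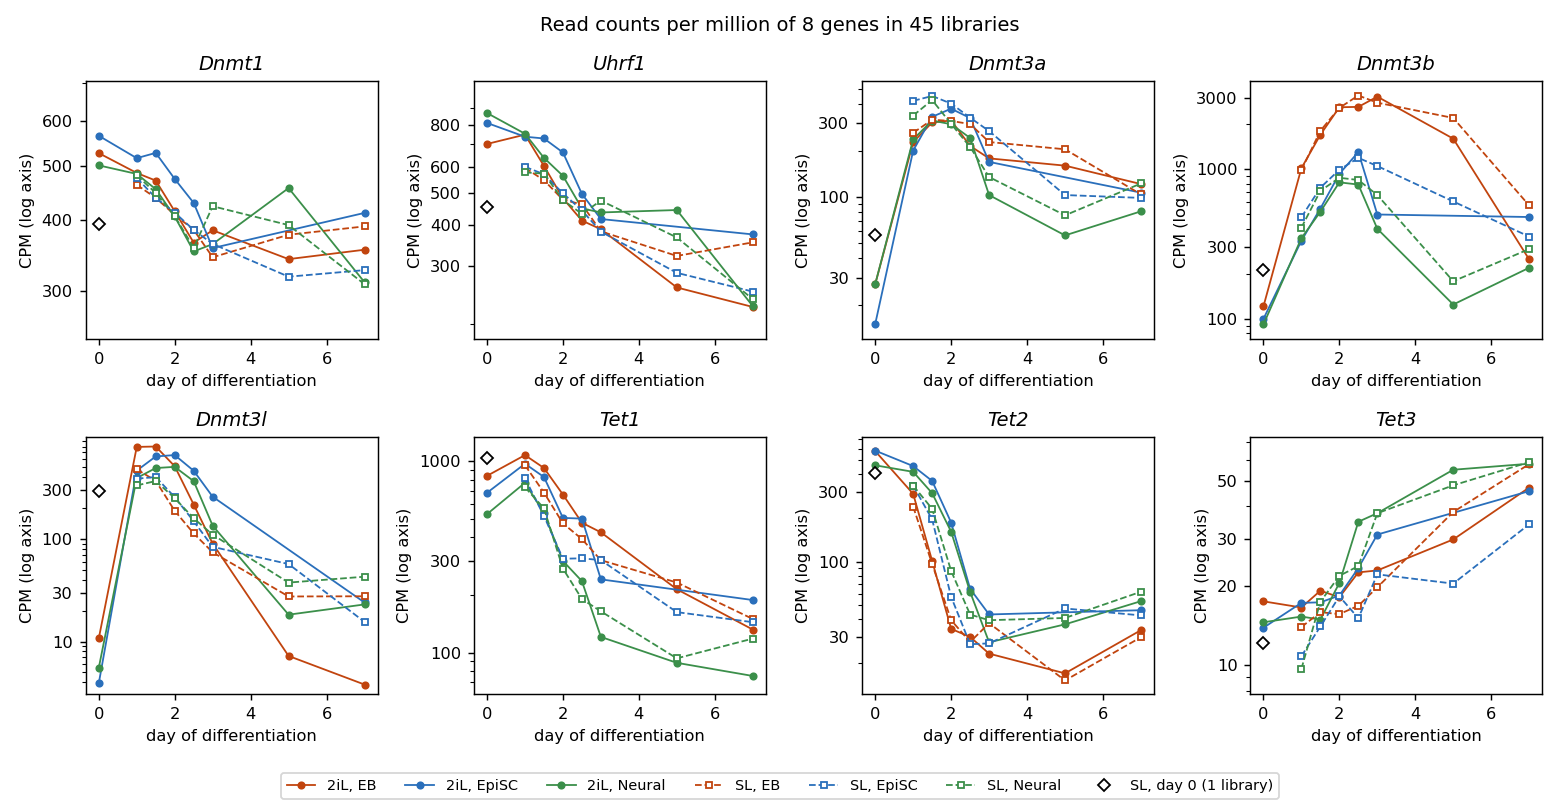
CPM of the 8 genes (log axes, a different range in each panel) against the day of differentiation, with 1 point per library, colour for the course, filled points for cells from 2iL, open points for cells from SL and a black diamond for the single SL library of day 0. Dnmt3l in the 2iL courses went from 10.8, 3.93 and 5.55 CPM at day 0 to 793, 466 and 394 CPM at day 1.

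To ask which of these genes moved as the cells left 2iL or SL, days were compared over the 3 courses within each medium. From 2iL, 3 of the 8 genes passed the threshold at day 1 against day 0 (Dnmt3a, Dnmt3b and Dnmt3l, all upward), where 28.6% of all genes tested did, and 5 passed at day 2, where 44.6% of all genes did. All 8 passed between days 2 and 7, where 58.1% of all genes passed, and 7 between days 0 and 7, where 63.6% did. From SL, 2 of 8 passed at day 1 (all genes 18.1%), 4 at day 2 (all genes 32.3%), 7 between days 2 and 7 (all genes 55.1%) and 5 between days 0 and 7 (all genes 42.1%). Shares over 8 genes are coarse, and at days 1 and 2 each count lay within 2 genes of what the share of all genes would give. Between days 2 and 7 the median log2 fold change of the members was -1.64 from 2iL and -1.10 from SL against 0.06 and 0.08 over all genes tested.

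**Figure D2:**
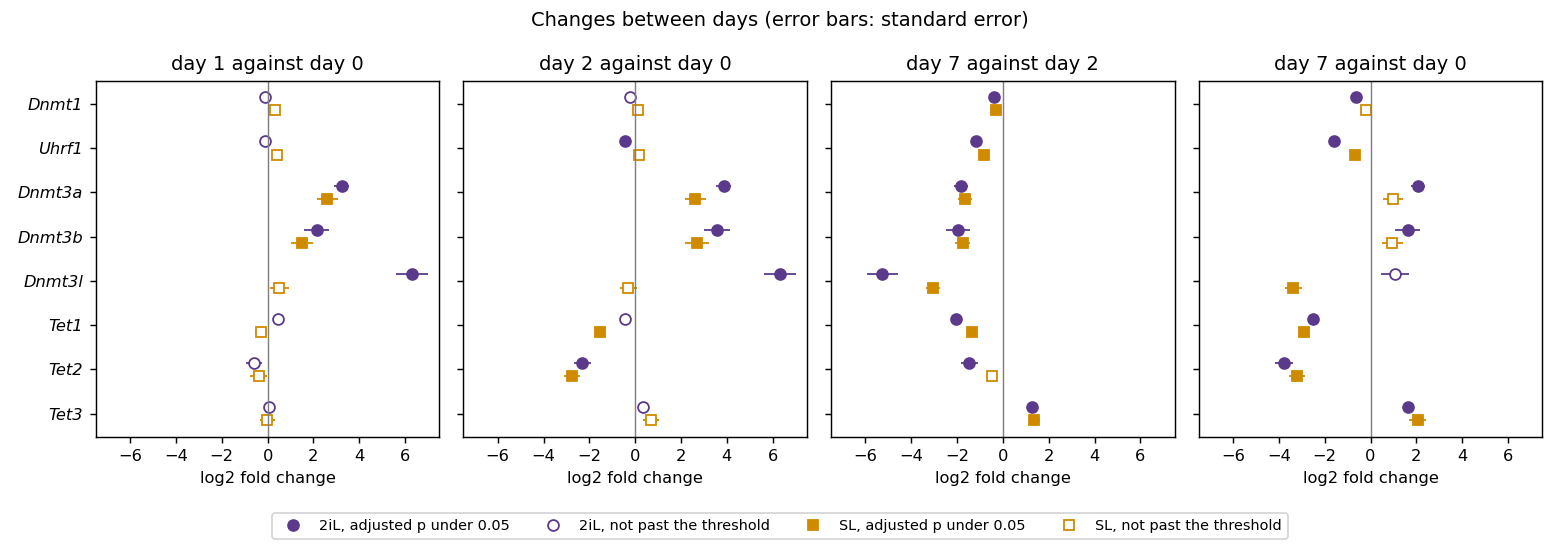
Log2 fold change (horizontal axis, with standard error) of each gene between the days named above each panel, for cells from 2iL (circles) and from SL (squares), filled where the Benjamini-Hochberg adjusted p of edgeR's quasi-likelihood test was under 0.05. Dnmt3l from 2iL rose by 6.29 to day 1 and its change from day 2 to day 7 was -5.25.

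Cell type markers moved over days 2 to 7 as well. From 2iL 4 of 6 endoderm markers (Gata4 at 3.45, adjusted p = 0.0022 on the log2 scale), 3 of 5 neural markers (Map2 at 4.45, adjusted p = 5.62e-05), 3 of 5 blood and endothelial markers and 1 of 5 primitive streak markers rose, while 2 of 5 formative markers fell. From SL 2 of 6 endoderm, 4 of 5 neural, 1 of 5 blood and endothelial and 1 of 5 primitive streak markers rose, and 2 of 5 formative and all 4 2-cell-like markers fell. Of the naive markers 2 rose and 2 fell from 2iL, and 2 rose and 1 fell from SL. Neural markers summed to 54.1 to 106 CPM on day 2 and 107 to 631 CPM on day 7 from 2iL, and endoderm markers to 94.2 to 249 and 168 to 2247 CPM. From SL the sums were 56.4 to 125 and 179 to 404 CPM for neural markers and 862 to 1906 and 115 to 2674 CPM for endoderm markers. Their part in the late changes of the members was not tested.

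Dnmt3l had the largest log2 fold change of the 8 genes from 2iL. It was near its lowest in 2iL, at 10.8, 3.93 and 5.55 CPM on day 0, and reached 793, 466 and 394 CPM on day 1, a 78.1-fold rise (log2 fold change 6.29, SE 0.70, adjusted p = 9.27e-06). The day 0 and day 1 values are far apart in every course. It then stood at 513, 659.9 and 506 CPM on day 2, when the EB culture had already begun to fall, and at 90.3, 259 and 135 CPM on day 3. By day 7 it had dropped to 3.81, 24.1 and 23 CPM (log2 fold change -5.25, SE 0.66, adjusted p = 9.08e-06 against day 2). The EB culture ended below the day 0 library labelled EB and the other cultures above those of their labels. Day 7 did not pass against day 0 (log2 fold change 1.07, SE 0.60, adjusted p = 0.131). Without the EB course it did, with a log2 fold change of 2.20 and an adjusted p of 6.18e-05. On the gene model used here Dnmt3l shares 67 exon bases with Aire on the opposite strand, whose reads over all libraries numbered 16909 against 241436 for Dnmt3l in this strand-specific count.

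From SL the same gene started high, at 297 CPM, and stood at 479, 388 and 334 CPM on day 1, 189, 256 and 251 CPM on day 2 and 27.7, 15.6 and 42.9 CPM on day 7. Neither day 1 nor day 2 passed against day 0 (log2 fold changes 0.51 and -0.30, adjusted p = 0.408 and 0.593), and day 7 was lower than day 0 (log2 fold change -3.37, SE 0.36, adjusted p = 5.71e-06). All 3 courses from SL peaked by day 1.5.

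Dnmt3a rose in every course. From 2iL it went from 27.2, 15 and 27.3 CPM on day 0 to 227, 199.9 and 237 CPM on day 1 and 313, 373 and 296 CPM on day 2. The log2 fold changes against day 0 were 3.23 (SE 0.32, adjusted p = 3.22e-06) at day 1 and 3.87 (SE 0.33, adjusted p = 2.61e-07) at day 2. From SL it went from 56.9 CPM to 261, 419.6 and 337 CPM on day 1 (log2 fold change 2.61, SE 0.47, adjusted p = 0.00222). The highest values came at days 1.5 or 2 in each of the 6 time series. It then declined to 121, 107 and 80.7 CPM from 2iL and 104, 98.6 and 122 CPM from SL on day 7, with log2 fold changes against day 2 of -1.82 (SE 0.30, adjusted p = 0.000107) and -1.65 (SE 0.29, adjusted p = 0.000203). Day 7 from 2iL was still 4.16-fold above day 0 (log2 fold change 2.05, SE 0.31, adjusted p = 2.73e-05). From SL the same comparison gave 0.97 (SE 0.42, adjusted p = 0.0764), and it passed without the EB course (adjusted p = 0.0389) and with DESeq2 (adjusted p = 0.0429).

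Dnmt3b reached its peak later than Dnmt3l in 5 of the 6 time series and on the same day in the other. From 2iL it went from 121, 99.7 and 91.5 CPM on day 0 to 1018, 333 and 346 CPM on day 1 and 2605, 932 and 819 CPM on day 2. Every culture was higher on day 2 than on day 1, and the EB culture was the highest on both days. The changes against day 0 were 2.14 (SE 0.54, adjusted p = 0.0071) at day 1 and 3.58 (SE 0.57, adjusted p = 0.000111) at day 2. The day 1 call was lost without the EpiSC course (adjusted p = 0.0625) and without the term for the course (adjusted p = 0.0552).

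From SL Dnmt3b went from 212 CPM to 988, 478 and 407 CPM on day 1 and 2581, 993 and 878 CPM on day 2 (log2 fold changes 1.5, SE 0.48, adjusted p = 0.0413 and 2.70, SE 0.52, adjusted p = 0.00127). All 6 cultures were above the SL library of day 0. The first of these calls was lost without the EB course (adjusted p = 0.119), without the EpiSC course (0.144), with library totals as the scaling (0.0519) and without the term for the course (0.434), and the second without that term (0.12). The peak fell between days 2 and 3 in all 6 series, and in the EB cultures it reached 3068 CPM from 2iL and 3123 CPM from SL.

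On day 7 Dnmt3b stood at 249, 479.6 and 219 CPM from 2iL and 573, 355 and 293 CPM from SL, lower than on day 2 (log2 fold changes -1.96, SE 0.54, adjusted p = 0.00537 and -1.76, SE 0.32, adjusted p = 0.000292). Without the term for the course the SL change had an adjusted p of 0.0523. Against day 0, day 7 was higher from 2iL (log2 fold change 1.62, SE 0.53, adjusted p = 0.014), a call lost without the EpiSC course (adjusted p = 0.191) and without the term for the course (0.129). From SL it did not pass (log2 fold change 0.95, SE 0.47, adjusted p = 0.113) except without the Neural course (adjusted p = 0.00686).

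Dnmt1 and Uhrf1, the maintenance pair, were lower on day 7 than on day 2 from both media. Dnmt1 was at 526, 565 and 500.4 CPM on day 0 in 2iL, 415, 473 and 406 CPM on day 2 and 355, 412 and 311 CPM on day 7. Day 2 lay below day 0 in all 3 courses and did not pass (log2 fold change -0.23, SE 0.10, adjusted p = 0.0658), although it did with DESeq2 (adjusted p = 0.0456) and with library totals as the scaling (0.0222). Day 7 was lower than both day 2 (log2 fold change -0.40, SE 0.10, adjusted p = 0.00307) and day 0 (log2 fold change -0.63, SE 0.10, adjusted p = 4.88e-05), which is 0.646 of the day 0 level. From SL it stood at 394 CPM on day 0, 409, 413 and 407 CPM on day 2 and 390.2, 327 and 308 CPM on day 7. The decline from day 2 to day 7 from SL was -0.30 (SE 0.09, adjusted p = 0.0109) on the log2 scale and was not called without the EpiSC course (adjusted p = 0.122) or the Neural course (0.101).

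Uhrf1 declined with it. It was at 702, 813 and 872 CPM on day 0 in 2iL, 481, 662 and 562 CPM on day 2 and 225, 374 and 227 CPM on day 7. The 3 days did not overlap. The day 2 change was -0.43 (SE 0.15, adjusted p = 0.027), a call lost when any 1 course was left out (adjusted p from 0.0626 to 0.101) and without the term for the course (0.123). From day 2 to day 7 it fell by 1.19 on the log2 scale (SE 0.15, adjusted p = 9.58e-06). From SL it went from 452 CPM on day 0 to 595, 599 and 576 CPM on day 1, 476, 498 and 475 CPM on day 2 and 354, 251 and 238 CPM on day 7. The late SL decline was -0.83 (SE 0.12, adjusted p = 5.54e-05) against day 2 and -0.66 (SE 0.17, adjusted p = 0.00529) against day 0, the latter with an adjusted p of 0.0584 without the EpiSC course.

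Within a library the log2 ratio of Dnmt1 to Uhrf1 reads, which no scaling alters, rose from -0.58 ± 0.20 (SD, n = 3) on day 0 in 2iL to 0.42 ± 0.26 (SD, n = 3) on day 7. From SL it was -0.20 in the single day 0 library and 0.30 ± 0.14 (SD, n = 3) on day 7. The 13 replication and cell cycle genes listed beside the members (among them Mcm2 to Mcm7 and Ccne1) summed to 4704 to 5978 CPM on day 2 from 2iL and 2847 to 4680.4 CPM on day 7. Between those days 11 of the 13 passed downward and none upward from 2iL, and 12 of 13 downward from SL, where 58.1% and 55.1% of all genes passed in either direction, with medians of -0.75 and -0.49. Their part in the fall of Dnmt1 and Uhrf1 was not tested.

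Tet1, the first of the dioxygenases, was highest on day 1 in each of the 3 courses from 2iL. It was at 839, 684 and 529 CPM on day 0 and 1077, 971 and 772 CPM on day 1, higher in each of the 3 courses but short of the threshold (log2 fold change 0.46, SE 0.21, adjusted p = 0.113). It was then at 670.0, 506 and 301 CPM on day 2 and 132, 188 and 75.4 CPM on day 7. Day 7 was -2.03 (SE 0.22, adjusted p = 2.11e-06) against day 2 and -2.49 (SE 0.22, adjusted p = 1.31e-07) against day 0 on the log2 scale. From SL it began at 1046 CPM and was already at 474, 309 and 275 CPM on day 2 (log2 fold change -1.54, SE 0.24, adjusted p = 0.000241). On day 7 from SL it was at 149.8, 144 and 118 CPM, 0.134 of day 0 (log2 fold change -2.90, SE 0.23, adjusted p = 4.74e-07).

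Tet2 was at its highest before differentiation. From 2iL it was at 578, 582 and 461 CPM on day 0, 293, 456 and 416 CPM on day 1, 34.3, 186 and 160.5 CPM on day 2 and 23.2, 43.1 and 27.7 CPM on day 3. The EB culture was the lowest at each of days 1 to 3. The day 2 change was -2.31 (SE 0.38, adjusted p = 0.000136) on the log2 scale, and from SL, where the levels went from 409 to 39.4, 57.1 and 86.1 CPM, it was -2.74 (SE 0.35, adjusted p = 5.32e-05). Day 7 stood at 33.6, 46.2 and 53.3 CPM from 2iL and 30, 42.5 and 61.9 CPM from SL. Against day 2 this was lower from 2iL (log2 fold change -1.46, SE 0.37, adjusted p = 0.00293), a call lost without the EpiSC course (adjusted p = 0.0956) or the Neural course (0.0624), and from SL it did not pass (log2 fold change -0.48, SE 0.27, adjusted p = 0.152). In the EB culture from 2iL it read 34.3 CPM on day 2, 16.9 CPM on day 5 and 33.6 CPM on day 7.

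Tet3 moved upward, and late, in both media. It was at 17.4, 13.8 and 14.5 CPM on day 0 in 2iL, 18.1, 18.3 and 20.5 CPM on day 2 and 47.1, 45.6 and 58.0 CPM on day 7. From SL it was at 12.1, then 15.6, 18.2 and 21.8 on day 2 and 57.8, 34.2 and 58.8 CPM on day 7. The day 2 values did not pass against day 0 from either medium (adjusted p = 0.171 and 0.144), although from 2iL they did without the EB course (0.0286). Day 7 passed against day 2 from 2iL (log2 fold change 1.27, SE 0.21, adjusted p = 9.51e-05) and from SL (log2 fold change 1.37, SE 0.23, adjusted p = 0.000159), and against day 0 it was 3.10-fold and 4.15-fold higher. The log2 ratio of Tet1 to Tet3 reads within a library went from 5.47 ± 0.24 (SD, n = 3) on day 0 in 2iL to 1.30 ± 0.85 (SD, n = 3) on day 7, and from 6.43 in the single SL library of day 0 to 1.49 ± 0.54 (SD, n = 3).

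Levels of different genes were compared per exon length, as CPM per kilobase of the merged exons of each gene (RPKM). On day 0 in 2iL Uhrf1 led with 187 ± 20.2 RPKM (SD, n = 3), ahead of Dnmt1 with 71.9 ± 4.38, Tet1 with 44.3 ± 10.0, Tet2 with 32.0 ± 4.07 and Dnmt3b with 20.4 ± 2.97. With the longest transcript as the length Tet2 stood at 58.9 RPKM and above Tet1 at 47.6, and Dnmt3a and Dnmt3l read 2.39 and 3.70. With merged exons Dnmt3l was at 2.26 ± 1.20, Dnmt3a at 1.39 ± 0.424 and Tet3 at 0.914 ± 0.114 RPKM. On day 2 the order had changed, with Dnmt3b at 284 ± 196 RPKM and Dnmt3l at 187 ± 29.0 RPKM ahead of Uhrf1 at 133 ± 21.3. The EB culture was the highest of the 3 for Dnmt3b, and only there did Dnmt3b lie above Dnmt3l. In the EpiSC and Neural cultures Dnmt3l was the higher of these genes. Over the 45 libraries Dnmt3b ranked first in 26, Uhrf1 in 14 and Dnmt3l in 5, while Tet3 ranked last in 37, Tet2 in 7 and Dnmt3l in 1. These ranks use merged exons and were not counted with the longest transcript, with which they may differ. Dnmt3a was never above 27.1 RPKM, well under the highest Dnmt3b value of 612.

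**Figure D3:**
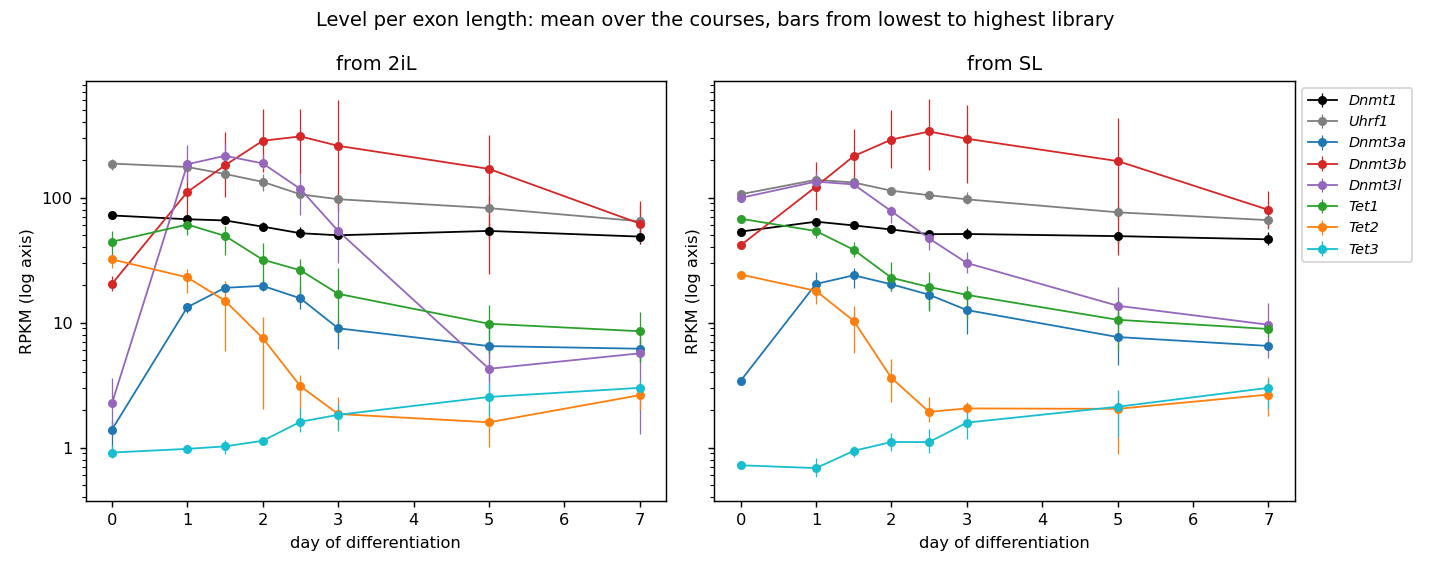
RPKM (log axis) of the 8 genes by day, from 2iL (left) and from SL (right), as the mean over the courses with bars from the lowest to the highest library (no bar for the single SL library of day 0). Dnmt3b averaged 308 RPKM from 2iL and 337 RPKM from SL on day 2.5, above the other 7 genes.

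The media were compared directly to ask how far the starting culture shows in these genes and for how long. On day 0, 4 of the 8 genes passed between the 3 libraries from 2iL and the 1 from SL, where 30.8% of all genes did. Dnmt3l was lower in 2iL, at 10.8, 3.93 and 5.55 CPM against 297 CPM (log2 fold change -5.35, SE 0.36, adjusted p = 3.76e-05). Dnmt3a, at 27.2, 15 and 27.3 against 56.9 CPM, was lower too (log2 fold change -1.22, SE 0.30, adjusted p = 0.0144), as was Dnmt3b, at 121, 99.7 and 91.5 against 212 CPM (log2 fold change -0.97, SE 0.17, adjusted p = 0.00314). Uhrf1 was higher in 2iL, at 702, 813 and 872 against 452 CPM (log2 fold change 0.88, SE 0.23, adjusted p = 0.0199). All 3 de novo genes thus lay below the SL library in every 2iL library, and Uhrf1 above it. Dnmt1 gave 0.49 (SE 0.18, adjusted p = 0.0729), Tet1 -0.56 (SE 0.24, adjusted p = 0.101), Tet2 0.46 (SE 0.19, adjusted p = 0.104) and Tet3 0.40 (SE 0.23, adjusted p = 0.218) on the log2 scale.

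The spread on day 0 came from the 2iL libraries alone, since SL had 1. With the spread taken over all 45 libraries Dnmt3b no longer passed (adjusted p = 0.341) and Dnmt1 did (0.00323), and DESeq2 called Dnmt1, Tet1 and Tet2 as well (adjusted p = 0.0162, 0.0437 and 0.0441). Tet1 also passed without the EB library of day 0 (0.0416). Markers of other cell types differed in the same comparison. All 6 endoderm markers were lower in 2iL, summing to 3.33 to 5.92 CPM against 426 CPM in SL, with Cubn at -8.23 (adjusted p = 7.61e-06) and Dab2 at -6.42 (adjusted p = 7.83e-06) on the log2 scale. All 4 2-cell-like markers were lower too, summing to 11.9 to 80.3 against 359.6 CPM. Other markers past the threshold were higher in 2iL. These were T (4.71), Mixl1 (3.81) and Gsc (5.38) of the primitive streak and Nes (2.69) and Tubb3 (1.78) of the neural markers, while the neural Map2 was lower (-2.78). Of the naive markers Tfcp2l1 (1.66), Prdm14 (1.96) and Nanog (0.61) were higher in 2iL. The formative Pou3f1 (-2.25) and Dusp6 (-3.30) were lower. Their part in the differences of the members was not tested.

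On the days tested after day 0 none of the 8 genes passed between the media. This was so on day 1, where 14.1% of all genes passed, on day 2 (8.25%), on day 3 (0.571%) and on day 7 (0.0911%). The nearest were on day 2: Dnmt3l, at 513, 659.9 and 506 CPM from 2iL and 189, 256 and 251 CPM from SL, did not overlap between the media (log2 fold change 1.35, SE 0.43, adjusted p = 0.0507). Tet2 on day 2 was higher from 2iL in the EpiSC and Neural courses and lower in EB (log2 fold change 1.01, SE 0.33, adjusted p = 0.0516). Both passed with DESeq2 (adjusted p = 0.0205 and 0.0224) and without the EB course (0.024 and 0.00146). At an unadjusted p under 0.05, 3 genes passed on day 1, 3 on day 2, 0 on day 3 and 0 on day 7, and DESeq2 called 0 on days 1, 3 and 7. In CPM, Dnmt3l was higher from 2iL in 3 of 3 courses on each of days 1, 1.5, 2, 2.5 and 3. It was then at 1.18 to 3.11 times the SL level. On day 5 it stood at 0.263 and 0.486 of the SL level in the 2 courses compared, and on day 7 it was higher in 1 of 3. Days 1.5, 2.5 and 5 were not tested between the media.

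**Figure D4:**
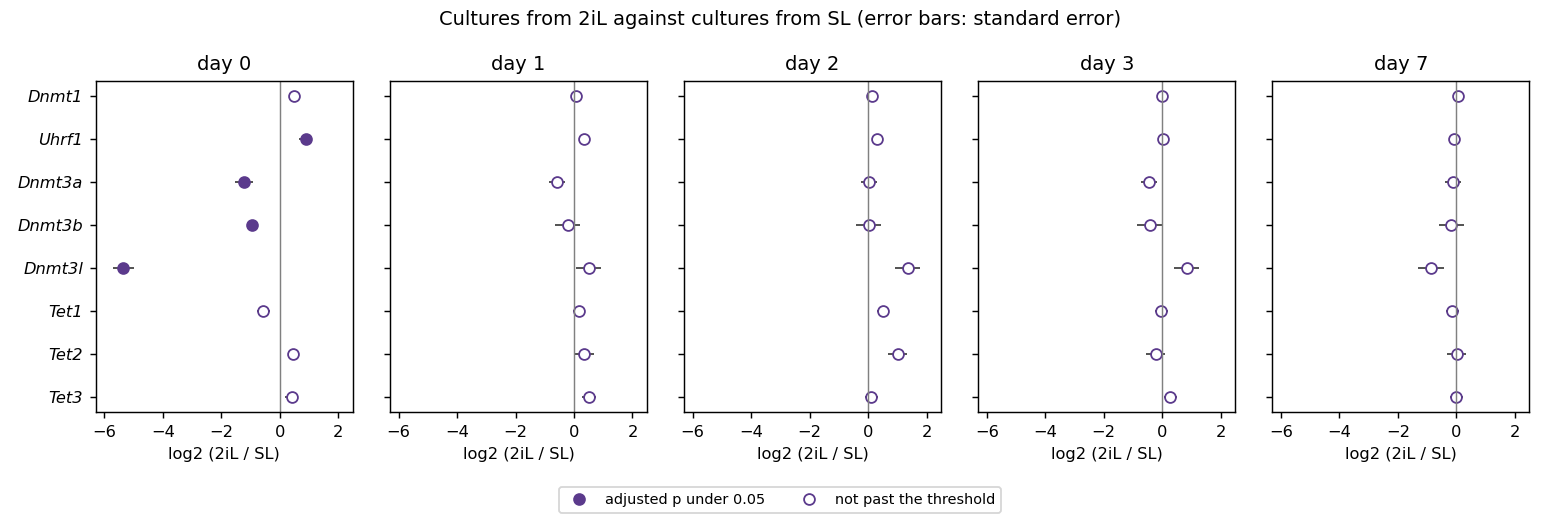
Log2 fold change of each gene in cultures from 2iL over cultures from SL (horizontal axis, with standard error) at days 0, 1, 2, 3 and 7, filled where the adjusted p was under 0.05. The filled points are all on day 0, with Dnmt3l at -5.35.

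Whether a change over time differed between the media was tested itself. From day 0 to day 2, Dnmt3l alone passed among the members (log2 fold change 6.58, SE 0.78, adjusted p = 1.91e-06), where 12.4% of all genes did. Its change was 6.32 from 2iL and -0.30 from SL. The Tet1 difference of 1.03 (SE 0.36, adjusted p = 0.0559) passed with DESeq2 (adjusted p = 0.0288) and with library totals as the scaling (0.0445). From day 2 to day 7 none of the 8 passed, where 1.04% of all genes did, and 2 had an unadjusted p under 0.05, Dnmt3l (-2.17, SE 0.67, adjusted p = 0.13) and Tet1 (-0.64, SE 0.30, adjusted p = 0.413). DESeq2 called Dnmt3l there (adjusted p = 0.0467), and without the EB course Tet2 passed (0.0181). These contrasts share the day 0 and day 2 libraries with the comparisons above.

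The courses were compared over days 1, 1.5 and 2 with media and days standing in for replicates. Libraries of consecutive days need not be separate cultures, so these p-values may be too small. Between EB and EpiSC 4 of the 8 genes passed (all genes 35.4%), between EB and Neural 3 (all genes 41.9%) and between EpiSC and Neural none (all genes 6.59%). The adherent courses thus gave no call between them for the members at this stage, with 1 gene (Tet1) at an unadjusted p under 0.05 and called with library totals as the scaling (adjusted p = 0.0465), and none called with DESeq2.

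Dnmt3b was higher in EB than in either adherent course. It was 2.07 to 3.12 times the EpiSC level in 6 pairs matched for medium and day, and 2.43 to 3.28 times the Neural level, with log2 fold changes of 1.44 (SE 0.07, adjusted p = 1.16e-08) and 1.43 (SE 0.07, adjusted p = 1e-08). On day 1 the EB culture from 2iL was already at 1018 CPM, while EpiSC and Neural reached 333 and 346 CPM. Tet1 was higher in EB as well, in 6 of 6 pairs against each of the others (0.36, SE 0.09, adjusted p = 0.00493 and 0.55, SE 0.09, adjusted p = 0.000194).

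Tet2 went the other way. It was lower in EB in 6 of 6 pairs against each adherent course, at 0.185 to 0.715 of the EpiSC level and 0.214 to 0.715 of the Neural level (-1.08, SE 0.22, adjusted p = 0.00219 and -1.22, SE 0.22, adjusted p = 0.000652). Dnmt3a was slightly lower in EB than in EpiSC (log2 fold change -0.27, SE 0.09, adjusted p = 0.0395), a call lost without the SL libraries, when the log2 fold change was -0.02 (adjusted p = 0.886). Against Neural, Dnmt3a passed only without the 2iL libraries (0.0264), and Dnmt1 passed with DESeq2 at a log2 fold change of -0.09 (adjusted p = 0.0115). Without the term for medium and day, the Dnmt3b calls held and the others were lost. Adjusted p was then 0.271 for Dnmt3a against EpiSC, 0.522 and 0.247 for Tet1 against EpiSC and Neural, and 0.297 and 0.224 for Tet2.

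**Figure D5:**
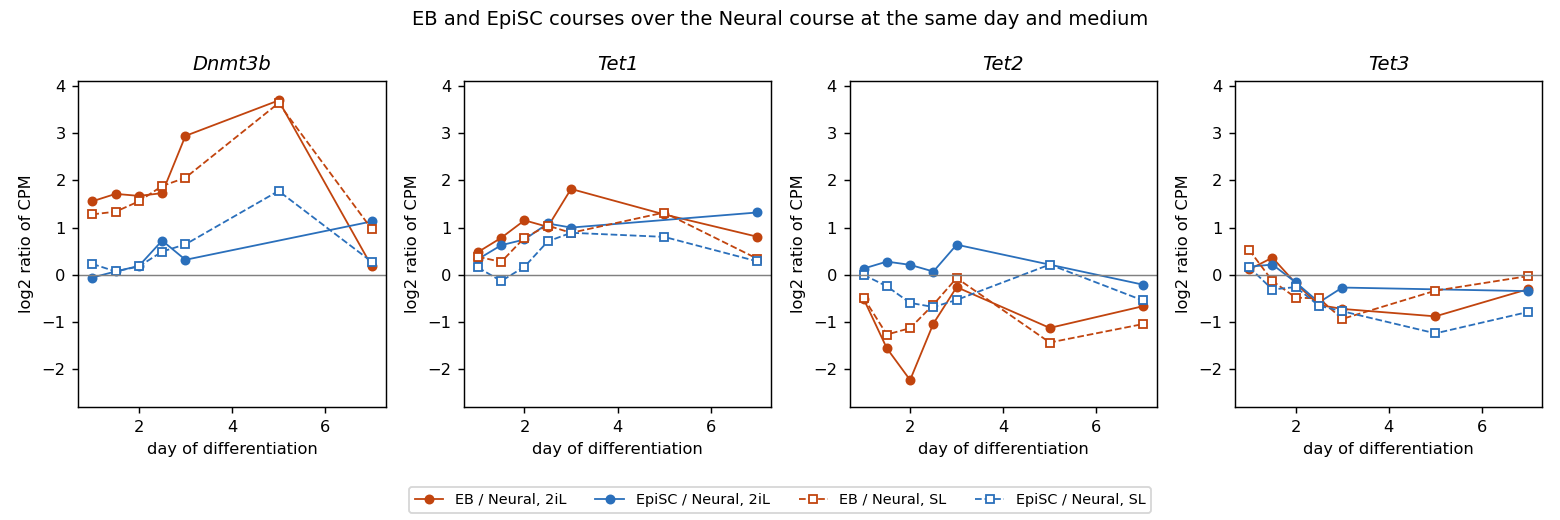
Log2 ratio of CPM in the EB course (orange) and the EpiSC course (blue) to the Neural course at the same day and medium, for 4 genes, with filled points from 2iL and open points from SL, 1 library on each side of a ratio. Dnmt3b in EB was 2.43 to 3.28 times the Neural level over days 1 to 2, and the Tet2 ratios of EB lie below 0 at every day shown.

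Cell type markers differed between the courses over days 1 to 2 too. Formative markers were higher in EB for 3 of 5 against each adherent course (Fgf5 at 1.71, adjusted p = 0.000318 against EpiSC and 3.41, adjusted p = 1.67e-06 against Neural), with Dusp6 lower than in EpiSC. Neural markers were lower in EB for 3 of 5 against each (Sox1 at -2.36, adjusted p = 4.99e-05 and -2.66, adjusted p = 1.01e-05). Of the endoderm markers Cubn and Dab2 were higher in EB against both, and Gata6 was lower than in Neural. Naive markers were lower in EB for 1 of 7 against EpiSC (Tbx3) and 2 of 7 against Neural (Tbx3 and Klf4), and of the primitive streak markers T was lower than in EpiSC and Eomes higher than in Neural. Of 4 blood and endothelial markers 2 were higher than in EpiSC and 1 higher than in Neural, and none of the 4 2-cell-like markers passed. Formative markers summed to 333 to 569 CPM in EB, 200.1 to 516 CPM in EpiSC and 161 to 364 CPM in Neural over these days. Their part in the differences of the members was not tested.

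Over days 5 and 7 no member passed between EB and EpiSC, where 2.63% of all genes did and 2 members, Tet2 and Tet3, had an unadjusted p under 0.05, with Tet2 called by DESeq2 (adjusted p = 0.00765). Between EB and Neural 3 of 8 passed (all genes 28.7%), and between EpiSC and Neural 2 (all genes 16.0%). Dnmt3b was higher in EB than in Neural, by 1.14 to 12.9 times in 4 pairs (log2 fold change 2.10, SE 0.63, adjusted p = 0.0395), and on day 5 stood at 1605 against 124 CPM from 2iL. On day 7 from 2iL the values were closer, at 249 against 219 CPM. Tet1 was higher in EB than in Neural (log2 fold change 0.83, SE 0.19, adjusted p = 0.0151) and Tet2 lower (log2 fold change -1.14, SE 0.20, adjusted p = 0.00721).

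EpiSC exceeded Neural for Tet1 (log2 fold change 0.77, SE 0.21, adjusted p = 0.0407) and fell short of it for Tet3, at 0.424 to 0.787 of the Neural level in 3 pairs (log2 fold change -0.95, SE 0.20, adjusted p = 0.018). These calls rest on few libraries. Without the libraries from either medium, no member passed between EB and Neural, when 158 of all genes did without 2iL and 0 without SL (adjusted p from 0.0921 to 0.372 for Dnmt3b, Tet1 and Tet2). Tet1 between EpiSC and Neural was lost without the libraries of either medium as well (0.284 without 2iL and 0.349 without SL), and Tet3 was lost without those from SL (0.464) or without the term for medium and day (0.0641). Between EB and Neural, DESeq2 also called Dnmt3a, Dnmt3l and Tet3 (adjusted p = 0.0218, 0.0145 and 0.0332), and Dnmt3a passed with library totals as the scaling (0.0484) and without the term for medium and day (0.049).

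Cell type markers moved with the same comparison of EB and Neural. All 5 primitive streak markers were higher in EB, with T at 7.47 (adjusted p = 0.00102) and Mixl1 at 7.32 (adjusted p = 0.0029) on the log2 scale. Neural markers were lower for 3 of 5, with Pax6 at -4.15 (adjusted p = 0.0162), and endoderm markers were lower in EB for 5 of 6, with Cubn at -3.05 (adjusted p = 0.0107). Of the formative markers 4 of 5 were higher, with Fgf5 at 3.76 (adjusted p = 0.0103), and of the 5 blood and endothelial markers none was higher and 1 lower. Of the 2-cell-like markers 3 of 4 were lower, and of the naive markers 2 of 7 were higher and 2 lower. Endoderm markers summed to 120.3 to 914 CPM in EB, 115 to 356 CPM in EpiSC and 1163 to 2674 CPM in Neural over days 5 and 7, and were thus highest in the cultures labelled Neural. Neural markers summed to 107 to 281, 187 to 454 and 394 to 631 CPM. Between EpiSC and Neural 5 of 6 endoderm markers were lower in EpiSC (Sox17 at -4.53, adjusted p = 0.00129), 4 of 5 primitive streak markers (T at 4.33, adjusted p = 0.00912) and 3 of 5 formative markers were higher, and 2 of 5 blood and endothelial markers were lower. Among the naive markers Nanog was higher at 3.40 (adjusted p = 0.0169), and Klf4 at -3.20 (adjusted p = 0.00286) and Tbx3 were lower, while none of the 5 neural or 4 2-cell-like markers passed. Their part in the differences of Dnmt3b, Tet1, Tet2 and Tet3 was not tested.

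Other genes of the pathway were followed by list. Of the maintenance partners, 10 genes that load, inhibit or assist the machinery, 4 rose and 5 fell at day 2 from 2iL, where 44.6% of all genes passed (median -0.05, all genes 0.05). The count of this list at day 2 from SL, where 32.3% of all genes passed, is not given. Hells, a remodeller needed for methylation of repeats, rose by 1.14 (adjusted p = 0.000122) on the log2 scale, and Dppa3, which shields DNA from methylation and inhibits UHRF1, fell (-2.87, adjusted p = 0.000406). Dppa3 was also higher in 2iL than in SL on day 0 (4.41, adjusted p = 0.000809). Between days 2 and 7, 8 of the 10 fell from 2iL and 1 rose, with Hells at -2.19 (adjusted p = 2.6e-07) and Trim28, the corepressor of KRAB zinc finger proteins, at -1.47 (adjusted p = 3.18e-07). From SL 6 of the 10 fell in that interval and none rose. Of all genes 58.1% from 2iL and 55.1% from SL passed in either direction (medians of the list -0.99 and -0.47).

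Uhrf2, the paralogue of Uhrf1, moved the opposite way, rising by 0.85 (adjusted p = 0.00331) between days 2 and 7 from 2iL and by 0.47 (adjusted p = 0.00204) from SL. Trdmt1, which despite its older name Dnmt2 methylates RNA, fell (-0.63, adjusted p = 0.0143 and -0.51, adjusted p = 0.00109). Of the 8 genes listed as readers of methylated CpG or their relatives, 2 rose and 5 fell at day 2 from 2iL (median -0.64). From SL 1 rose and 2 fell (median -0.11). Of all genes 44.6% from 2iL and 32.3% from SL passed at day 2. Mbd3, a subunit of NuRD, rose (0.92, adjusted p = 5.04e-05) and Zbtb4 fell (-1.88, adjusted p = 0.00112). From day 2 to day 7 Zbtb4 rose from 2iL (2.84, adjusted p = 2.62e-05), among 4 that rose and 2 that fell, and from SL 3 rose and 2 fell. In that interval 58.1% of all genes passed from 2iL and 55.1% from SL.

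Of the genes of active demethylation and base excision repair, 4 of 12 rose and 4 fell at day 2 from 2iL (median -0.57). From SL 3 of 13 rose and 7 fell (median -0.76). For this list and the next, the share of all genes that passed at day 2 was 44.6% from 2iL and 32.3% from SL. Tdg, the glycosylase that removes the oxidized bases made by TET enzymes, rose from 2iL (1.25, adjusted p = 2.1e-06). Gadd45g rose from both media (5.36, adjusted p = 4.46e-06 and 2.92, adjusted p = 0.00586) and Gadd45b fell (-3.37, adjusted p = 5.73e-06 and -2.39, adjusted p = 0.00712). Of the 6 genes of the S-adenosylmethionine cycle, which supplies the methyl groups, 2 rose and 2 fell at day 2 from 2iL and 3 rose and 1 fell from SL. Mat2a, which makes S-adenosylmethionine, rose by 0.72 (adjusted p = 0.000219) and 1.64 (adjusted p = 0.00027) and was lower on day 7 than on day 2 (-1.47, adjusted p = 2.44e-07 and -1.12, adjusted p = 5.23e-05).

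Across the 45 libraries the members' log2 CPM was compared as a description, over points that share media, courses and serial days. Dnmt1 and Uhrf1 were the most alike pair (r = 0.907). Among the de novo genes, Dnmt3a correlated with Dnmt3l (0.772) and Dnmt3b (0.723), and Dnmt3b less with Dnmt3l (0.464). Tet1 and Tet3 were opposed (-0.869). Against the summed naive markers Tet2 had the highest value (0.792), and against the summed replication genes Tet1 (0.840) and Uhrf1 (0.839).

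Among the 13768 genes with a mean of at least 1 CPM, the one most like Dnmt1 was Uhrf1 itself, and the one most like Uhrf1 was Mcm5 (0.940), a subunit of the replicative helicase. The closest genes were Myrf for Dnmt3a (0.919), Pdzd4 for Dnmt3b (0.952), Dnajc21 for Tet1 (0.965), H2-M5 for Tet2 (0.959) and Senp7 for Tet3 (0.938). The next 2 for 6 of the genes were Lrr1 and Zfp715 for Dnmt1, Anapc5 and Usp5 for Uhrf1, Foxp1 and Wt1 for Dnmt3a, Apobec3 and Morc3 for Tet1, Gabarapl2 and Mylpf for Tet2, and Fzd3 and Lrrc4b for Tet3. For Dnmt3l the 3 closest were Icosl (0.946), Crocc2 and Prss50. Icosl (chr10:78069302-78083913) lies 5680 bases beyond the end of Dnmt3l (chr10:78041947-78063622) on the same strand of GRCm38, and whether reads of one reach into the other was not tested.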

How the data were processed

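RNA was measured in 45 libraries (ribosomal RNA removed, strand-specific). Per the labels and the study's methods, the authors trimmed reads with TrimGalore, aligned them with TopHat2 to GRCm38/mm10 with Ensembl release 82 models and assigned them to genes with featureCounts. The deposited values are raw counts per gene, 1 table per library. Totals ran from 13093226 to 39804240 reads. Groups follow the labels for medium, course and day. Between libraries of 1 medium and day the mean chi-square per gene was at least 18.6, so within such a group none was a copy of another. Libraries of different days or media were not compared in this way.

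Counts were tested with edgeR 4.0.16 (TMM, filterByExpr, quasi-likelihood F test) in R 4.3.3 on all genes, with Benjamini-Hochberg adjustment over all genes tested and a threshold of 0.05. Standard errors are the log2 fold change over the square root of F. Days were compared within a medium with the course as a block, the SL library of day 0 belonging to no course. Media were compared at day 0 without a block and later with the course as a block. Courses were compared within blocks of medium and day. Over 13768 genes and the days after day 0, deviations from the group mean had a mean correlation of 0.385 for 260 pairs of libraries of 1 course (lowest -0.04). For 520 pairs of different courses it was -0.186, which adds no separate evidence, because deviations within a group cancel out. Libraries of 1 course share a protocol, so these values cannot show whether the cultures were paired. The block was also applied to the day 0 libraries named after a course. Those hold undifferentiated cells and did not enter these values. RPKM used merged exons of GENCODE vM21. Correlations used log2(CPM + 0.1), and ratios within a library had 0.5 reads added to each count. The fits were also run on simulated counts with the same spread for every gene and no effect of the course. Such counts cannot show how well the p-values hold where courses that differ stand in as replicates.

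Alternatives were DESeq2 1.42.0, library totals without TMM, no filter on low counts, no block, leaving out a course, medium or library, the longest transcript as the length, and other pseudocounts. All 8 genes were tested in every comparison, though not each is named for every comparison. From each other list (maintenance partners, related family members, readers of methylated CpG, demethylation and repair, S-adenosylmethionine cycle, replication, and markers of naive, formative, neural, primitive streak, endoderm, blood and 2-cell-like cells) at most 4 genes past the threshold with the largest changes are named per comparison. The 3 genes most correlated with each member are named too, except that some genes are not reported here. The members and lists were chosen with earlier results of these data known. Gm14490 (Dnmt3c) was not analysed here. Promoter sequences are from RefSeq on GRCm38.p6, and figures were drawn with matplotlib 3.10.9.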

Additional observations from a re-analysis of the deposited data

Results flagged for a closer look

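The change of Dnmt3l from day 0 to day 2 was flagged because it differed between the media in a direct test of that difference. The interaction was 6.58 on the log2 scale (edgeR quasi-likelihood test, adjusted p = 1.91e-06), with a rise in 3 of 3 courses from 2iL and values below the day 0 library in 3 of 3 courses from SL. The SL side rests on 1 library at day 0. In it the 6 endoderm markers and the 4 markers of 2-cell-like cells were higher than in the 2iL libraries as well. Map2, Pou3f1 and Dusp6 were higher in it too. T, Mixl1, Gsc, Nes, Tubb3, Tfcp2l1, Prdm14 and Nanog were lower in it than in the 2iL libraries. The part of these markers in the difference was not tested.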

How the results depend on the processing

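The courses share a block, and without the replicate block the number of the 8 genes called went from 2 to 1 for SL day 1 against day 0, from 4 to 1 for EB against EpiSC and from 3 to 1 for EB against Neural over days 1 to 2, and from 2 to 1 for EpiSC against Neural over days 5 and 7. In the other comparisons with a block it changed the count by 1 gene at most. DESeq2 called 7 genes instead of 4 between the media on day 0, 2 instead of 0 on day 2, 1 instead of 0 between EB and EpiSC and 6 instead of 3 between EB and Neural over days 5 and 7, 2 instead of 1 for the interaction to day 2 and 1 instead of 0 for that to day 7. Library totals without TMM gave 1 instead of 2 for SL day 1, 1 instead of 0 for EpiSC against Neural over days 1 to 2 and 2 instead of 1 for the interaction to day 2. It moved the median log2 fold change of all genes from 0.06 to 0.19 between days 2 and 7 from 2iL, and to 0.12 for EpiSC against Neural over days 1 to 2 and 0.11 for EB against Neural over days 5 and 7, where it was near 0. Leaving out a course gave 1 to 2 genes for SL day 1, 0 to 2 between the media on day 2 and 0 to 1 for the interaction to day 7. Leaving out a medium gave 0 genes for EB against Neural and 0 to 1 for EpiSC against Neural over days 5 and 7. The causes of these changes were not tested, beyond fewer libraries entering the fits that leave some out.

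Of the 168 log2 fold changes of the 8 genes, 78 passed in at least 1 fit. Of these, 2 changed sign, neither called in the reported fit: Dnmt1 between EB and Neural over days 1 to 2 became 0.0010 without TMM, and Tet1 between EpiSC and Neural ranged from -0.0011 without the libraries from 2iL to 0.37 without those from SL. The filter on low counts moved none of the 78 across the threshold. The other 90 passed in no fit, and 35 of them changed sign somewhere. With the longest transcript as the length, mean RPKM on day 0 in 2iL became 90.3 for Dnmt1, 2.39 for Dnmt3a, 24.1 for Dnmt3b, 3.70 for Dnmt3l, 222 for Uhrf1, 58.9 for Tet2 and 1.40 for Tet3. Tet2 then stood above Tet1. Depth limited no member, the lowest count being 59 reads. The limits are the single library per culture and day and the single SL library of day 0.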
